A study of Mus musculus with 9 samples.

Results

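The 32 genes described here are those of the pluripotency network of mouse embryonic stem cells (mESCs), chosen by name and ordered by role. They were chosen with earlier results of these data known. They are 3 core factors (Pou5f1, Nanog, Sox2), 10 naive-state transcription factors (Klf2, Klf4, Klf5, Esrrb, Tfcp2l1, Zfp42, Prdm14, Tbx3, Nr5a2, Gbx2), 7 Dppa and other marker genes (Dppa2, Dppa3, Dppa4, Dppa5a, Utf1, Fbxo15, Tcl1), 3 repressors and RNA regulators (Sall4, Zfp281, Lin28a), 6 ligands and co-receptors (Fgf4, Tdgf1, Lefty1, Lefty2, Gdf3, Nodal), and Stat3 with the Myc factors Myc and Mycn. Their windows were the 32 that held the 5′ end of a member, called start-site windows, and 340 others that overlapped a gene body or the 5 kb upstream of it, out of 833294 windows deposited. A value in all 9 libraries was present for 30 start-site windows and for 338 of the other windows. Tbx3 had no start-site value in knockdown cells at day 7, and Mycn had none in Nons cells at day 7. The comparison classes were the start-site windows of other protein-coding genes (19613 windows) and their other windows (395525 windows), each in the same library.

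Chromatin accessibility was measured by NOMe-seq in female mESC lines from a cross of FVB and CAST mice, which were grown in 2i and weaned into differentiation medium. One library was undifferentiated (day 0). The other libraries were 1 each for a nonsilencing control hairpin (Nons) and a Smarcc1 knockdown at days 4, 5, 6 and 7, from cells transduced with virus at day 2 and selected with puromycin at day 3. The day 0 cells were harvested before transduction. The study names a single hairpin for the knockdown libraries (Smarcc16 in their titles), and the labels do not say how many cell lines they came from. Smarcc1 is the core subunit of the BAF nucleosome remodelling complex. The assay reads DNA, so neither the knockdown nor the expression of any gene could be checked in these libraries.

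In NOMe-seq a GpC methyltransferase marks cytosines of GpC dinucleotides that nucleosomes leave free in fixed nuclei, and the marks are read by bisulfite sequencing. More open chromatin thus gives a higher percent. Each value is a mean over many cells and both alleles, so a few cells with a fully open site and many cells with a partly open one cannot be told apart. There was 1 library per condition and day, so no difference between 2 libraries has a replicate check, and the read depth behind each window is unknown. Whole libraries differed in level, with medians over all windows from 6.38% (Nons day 7) to 21.2% (Nons day 5), and 0.0292% to 5.43% of windows were at 0. Each member value is therefore also given as its percentile, the share of start-site windows of other protein-coding genes in the same library that lay below it, where 50 is the class median.

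The core factors Pou5f1 (also called Oct4), Sox2 and Nanog bind jointly to the regulatory regions of each other and of many other genes, and hold mESCs in the pluripotent state. The naive factors, kept active by LIF through Stat3 and by 2i, strengthen this state in the preimplantation-like form. On weaning from 2i, Fgf4 signalling and loss of the naive factors move the cells toward the formative and primed states, in which Nodal signalling stays active, before they commit to a lineage.

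The DNA that the enzyme could mark is shown for 6 members on which the results turn, 150 bases upstream of the start site, with each GpC in capitals. These are the 3 core genes, Klf2 and Lin28a, whose start-site windows differed most between days and between arms, and Fgf4, whose start is placed differently by the annotations. All are in mm10, 5′ to 3′ on the strand of the gene, and matched the RefSeq promoters (GRCm38.p6).
Pou5f1 chr17:35505868-35506017 (plus strand): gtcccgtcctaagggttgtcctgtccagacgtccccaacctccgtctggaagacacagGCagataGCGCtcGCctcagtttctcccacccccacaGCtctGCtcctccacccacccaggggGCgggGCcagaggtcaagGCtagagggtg
Nanog chr6:122707339-122707488 (plus strand): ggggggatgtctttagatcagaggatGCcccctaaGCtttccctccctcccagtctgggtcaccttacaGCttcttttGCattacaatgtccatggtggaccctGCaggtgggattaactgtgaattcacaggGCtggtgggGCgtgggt
Sox2 chr3:34649845-34649994 (plus strand): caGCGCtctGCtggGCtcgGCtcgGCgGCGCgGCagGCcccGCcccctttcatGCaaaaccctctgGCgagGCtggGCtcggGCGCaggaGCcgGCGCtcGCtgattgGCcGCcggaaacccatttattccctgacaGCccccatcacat
Klf2 chr8:72318883-72319032 (plus strand): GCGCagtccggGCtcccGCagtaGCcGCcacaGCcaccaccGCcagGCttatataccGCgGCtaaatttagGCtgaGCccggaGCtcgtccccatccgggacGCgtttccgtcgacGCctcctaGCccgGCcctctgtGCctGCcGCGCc
Lin28a chr4:134018842-134018991 (minus strand): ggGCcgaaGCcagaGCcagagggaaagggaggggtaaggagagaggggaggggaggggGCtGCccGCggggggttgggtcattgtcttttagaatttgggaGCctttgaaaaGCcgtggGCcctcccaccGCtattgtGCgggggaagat
Fgf4 chr7:144861236-144861385 (plus strand): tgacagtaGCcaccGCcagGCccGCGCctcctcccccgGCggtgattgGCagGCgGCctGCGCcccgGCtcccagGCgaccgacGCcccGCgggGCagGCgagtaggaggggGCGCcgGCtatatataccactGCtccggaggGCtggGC
Nanog carried 7 GpC sites in this stretch, Pou5f1 carried 9, Lin28a 11, Klf2 22, Fgf4 23 and Sox2 24. Every GpC was counted, also those whose cytosine is followed by G, which the NOMe-seq filter leaves out of the values. Each stretch lay inside 1 window except that of Nanog, whose first 26 bases lay in no window. The stretch of Sox2 also lies in the noncoding gene Sox2ot, and that of Lin28a in the noncoding gene Gm13061. For Sox2 and Fgf4 the stretch ends at the RefSeq start, since the GENCODE M21 gene begins elsewhere. For Fgf4 the GENCODE gene begins 14019 bp further upstream.

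The windows are longer than these stretches and hold different parts of the genes. The Pou5f1 start-site window (chr17:35504054-35506305) had 1964 bases upstream of the gene, 82 of noncoding exon and 206 of coding sequence. In contrast, the window of Nanog (chr6:122707365-122709485) had 124 bases upstream and 1600 of intron. The Sox2 window (chr3:34649386-34650995) had 1019 bases upstream and 580 of coding sequence, and that of Klf2 (chr8:72317383-72319383) had 1650 upstream. Lin28a (chr4:134017347-134019441) had 600 bases upstream and 1034 of intron. Dppa3, Gdf3 and Nanog lie within 97.4 kb of each other on chromosome 6, Dppa2 and Dppa4 start 20.2 kb apart on chromosome 16, and Lefty1 and Lefty2 start 41.9 kb apart on chromosome 1, but no window was shared by 2 members.

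In 300 bases around the GENCODE M21 5′ ends, the members had a median of 19 GpC sites (8 in Tdgf1 to 51 in Klf4). The median was 22 in 21723 other protein-coding genes. For Fgf4 this is not the stretch printed above. The octamer ATTTGCAT, a sequence that Oct4 and its relatives bind, was found on either strand in 1 member (Zfp42, 3.12%), and in 1.58% of the other genes. Only these exact letters were searched for, and variants of the octamer were not. The GC box GGGCGG was in 16 members (50%; other genes 43.3%), CCAAT in 15 (46.9%; 38.9%) and TATAAA in 8 (25%; 12.6%). A match is a description of these letters in a stretch of this length and not a binding site.

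The start-site windows of the network were more open than those of other genes in every library. At day 0 their median was 22.1% GpC methylation, 7.07 points above the class median of 15.0%, and 23 of 30 members lay above the class median. In Nons cells the members' medians were 23.95, 36.91, 19.02 and 12.68% at days 4, 5, 6 and 7, which lay 4.81, 6.47, 4.74 and 3.82 points above the class. In knockdown cells they were 19.9, 33.2, 19.3 and 18.1%, or 4.92, 6.97, 3.18 and 8.43 points above. Between 19 and 24 members lay above the class median in each library. The standard error over the 30 members was 1.60 to 2.67 points for each library's level, and it describes the spread between genes, not between libraries.

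**Figure D1:**
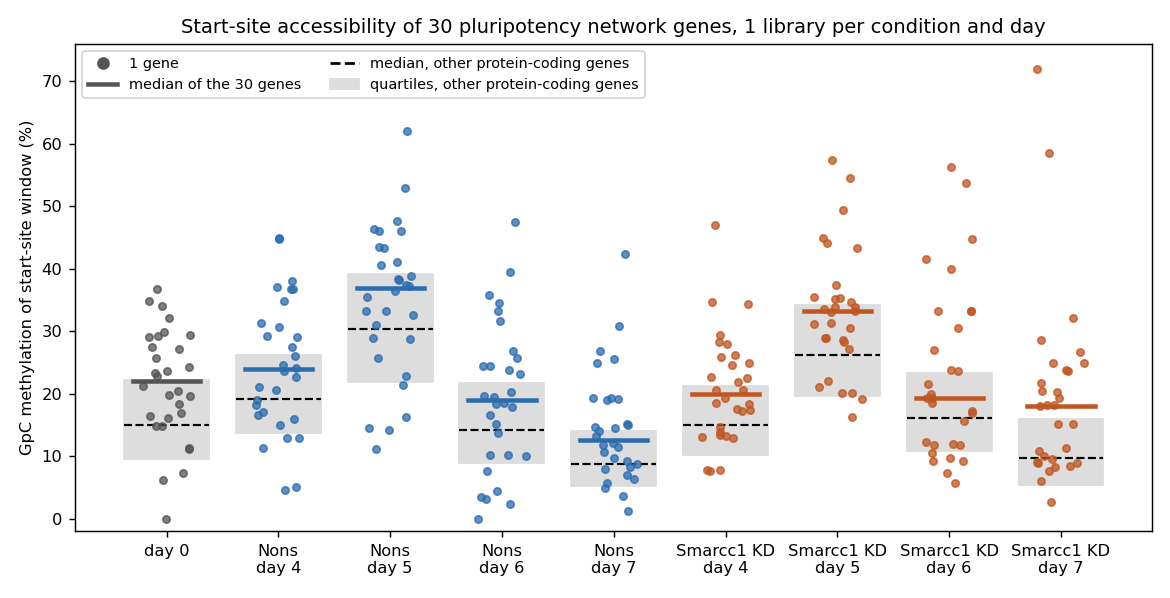
Percent GpC methylation of the start-site window (y axis) in the 9 libraries (x axis). Each point is 1 of 30 genes, coloured bars are the members' medians, dashed lines and grey boxes are the median and quartiles of 19613 other start-site windows, and the member bar lies above the dashed line in all 9 libraries, by 3.18 to 8.43 points.

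Percentiles averaged over the 9 libraries had a median of 64.3 over the members, against 49.8 over the class. Of the 30 members, 24 (80.0%) averaged above 50, as did 49.7% of the class, and 16 (53.3%) lay above the class median in 7 or more libraries, against 26.7% of the class. Pou5f1, Zfp42, Dppa4, Stat3 and Myc (16.7%) did so in all 9, as did 4.82% of the class. The excess was smaller in all 9 libraries against windows of like GC content and length, at 2.52 to 7.97 points. The difference passed the standard error over members in 3 libraries, with 4.66 points in place of 7.07 at day 0, 2.94 in place of 4.92 in knockdown cells at day 4, and 4.11 in place of 6.97 at day 5, and in Nons cells at day 4 it was 3.12 in place of 4.81. The members' windows had a median GC content of 50.3% (class 48.8%) and a median length of 2130 bp (class 2350 bp). Across the class, mean percentile and GC content had a Spearman correlation of 0.498 over 19613 windows, and across members of 0.368 over 30 windows. These points share their libraries and base composition.

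The rank of a gene differed between libraries, which cannot be told apart from measurement noise without replicates. Over the 36 pairs of libraries, the Spearman correlation of percentiles across the 30 members ranged from -0.11 to 0.573 with a median of 0.241, and across the class from 0.205 to 0.475 with a median of 0.312. All 9 values are therefore given for the genes on which the results turn.

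**Figure D2:**
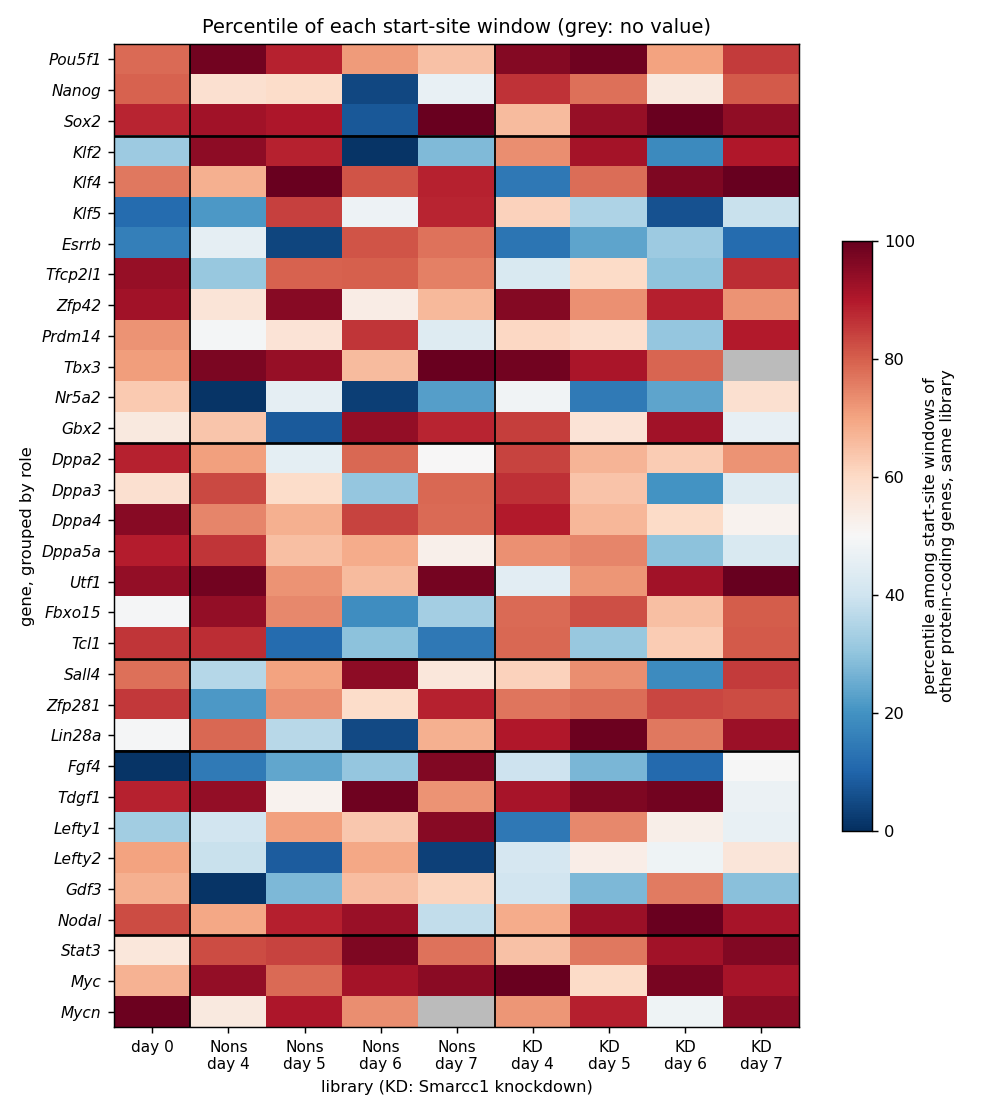
Percentile of each member's start-site window (rows, by role) among those of other protein-coding genes of the same library (columns). Red is above and blue below the class median of 50, grey marks Tbx3 and Mycn where no value was given, and the Pou5f1 row is red throughout, with its 4 deepest values at days 4 and 5.

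Of the core factors, Pou5f1 encodes the POU factor without which pluripotency is lost. Its start-site window had 23.6% at day 0, 44.9, 46.1, 20.3 and 11.5% in Nons at days 4, 5, 6 and 7, and 34.5, 54.6, 21.5 and 20.5% in knockdown cells at those days. All 4 libraries of days 4 and 5 lay above all 4 of days 6 and 7, with day 0 between them, and the window was above the class median in all 9. Its percentile was 78.2 at day 0, 88.5 to 98.7 at days 4 and 5, and 64.5 to 85 at days 6 and 7, and its mean of 83.4 was second among the 30 members with all values.

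Nanog encodes a homeodomain factor that stabilises the naive state. Its values were 24.2% at day 0, 21.1, 33.3, 3.23 and 8.33% in Nons at days 4, 5, 6 and 7, and 25.9, 35.2, 17.2 and 18.2% in knockdown cells at those days. They were above the class median in 7 of 9 libraries, and both exceptions were Nons cells at days 6 (percentile 4.54) and 7 (percentile 46.3). The knockdown library was higher than the Nons library at each of the 4 days.

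Sox2, the HMG-box partner of Oct4, had 29.2% at day 0, 34.9, 47.6, 4.55 and 42.4% in Nons at days 4, 5, 6 and 7, and 18.6, 44.9, 56.3 and 28.6% in knockdown cells at those days. It was above the class median in 8 of 9 libraries, with percentiles of 88.2 at day 0 and up to 99.6, but at 7.73 in Nons cells at day 6. The 2 libraries of day 6 lay at opposite ends of its range.

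**Figure D3:**
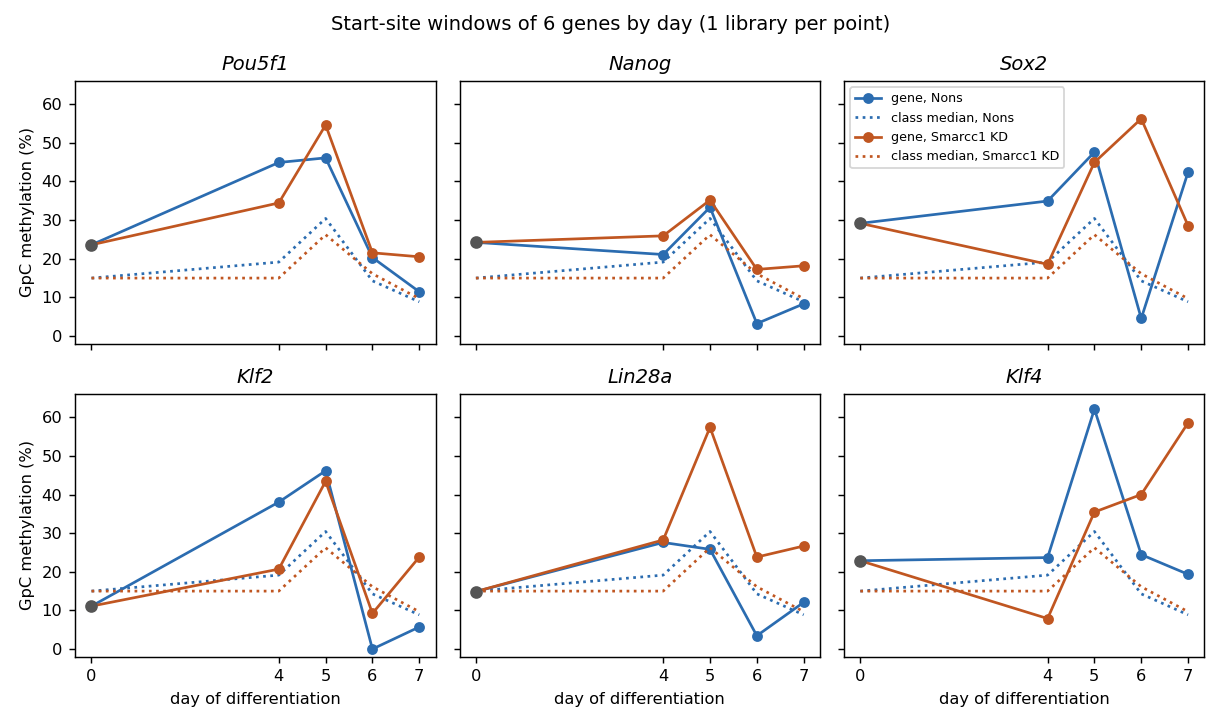
Percent GpC methylation (y axis) of the start-site windows of Pou5f1, Nanog, Sox2, Klf2, Lin28a and Klf4 by day (x axis), with Nons in blue, the Smarcc1 knockdown in orange and the common day 0 library in grey. Dotted lines are the class medians, each point is 1 library, and Pou5f1 and Klf2 lie well above the dotted lines at day 5. At day 6 Pou5f1 lies less far above them, and Klf2 lies below them, in both arms.

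Among the naive-state transcription factors, 9 of the 10 start-site windows had a value in every library, and 6 of the 9 had a mean percentile above 50. Klf2, a Krüppel-like factor of the naive state, had 11.1% at day 0, 38.04, 46.2, 0 and 5.71% in Nons at days 4, 5, 6 and 7, and 20.7, 43.4, 9.23 and 23.8% in knockdown cells at those days. It was at 0 in Nons cells at day 6 and below the class median in 4 of 9 libraries. Its mean percentile was 87.0 over the libraries of days 4 and 5 and 34.2 over those of days 6 and 7, a difference of -52.8 points, the most negative of the 30 members.

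Klf4, another Krüppel-like factor and a reprogramming factor, ran the other way. Its values were 22.9% at day 0, 23.7, 62.1, 24.4 and 19.4% in Nons at days 4, 5, 6 and 7, and 7.895, 35.5, 40 and 58.5% in knockdown cells at those days. The mean percentile was 64.8 at days 4 and 5 and 91.6 at days 6 and 7. The lowest and the second highest of the 9 values were both knockdown libraries, at days 4 and 7.

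Klf5 had 6.15% at day 0, 12.9, 43.5, 13.7 and 19.1% in Nons at days 4, 5, 6 and 7, and 17.5, 22.1, 5.81 and 7.69% in knockdown cells at those days, and only 3 of these lay above the class median. The nuclear receptor genes Esrrb and Nr5a2 had the lowest mean percentiles of the group, 33.8 and 31.1. Esrrb had 7.41% at day 0, 18.2, 11.1, 24.5 and 14.7% in Nons at days 4, 5, 6 and 7, and 7.69, 19.2, 12.2 and 2.78% in knockdown cells at those days, and Nr5a2 had 18.3% at day 0, 4.71, 29, 2.38 and 4.902% in Nons at days 4, 5, 6 and 7, and 14.7, 16.2, 10.5 and 11.4% in knockdown cells at those days. Each was above the class median in only 2 of 9 libraries. RefSeq gives both genes a second start further downstream, and those starts lie in windows counted with the gene body here.

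Zfp42 (Rex1), a reporter gene of the naive state, was above the class median in all 9 libraries, with percentiles of 53.7 to 96.0. Tfcp2l1 was at percentile 93.4 at day 0 and between 30 and 86.9 in the other libraries. Prdm14, a repressor of differentiation genes, ranged from 30.6 to 89.7, and Gbx2 from 8.09 to 93.9. Tbx3, which lacked 1 value, was above the class median in all 8 libraries in which it had one, with percentiles of 65.7 to 99.3. Its value at days 4 and 5 was 41.2 to 50.7% and that at day 6 was 18.5 and 25%, in both arms, but Nons cells at day 7 had 39.6%.

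All 7 Dppa and other marker genes had a mean percentile above 50, and at day 0 they had the highest median percentile of any role, 88.5. Dppa4 and Dppa2 encode partner DNA-binding proteins of the early embryo. Dppa4 was at percentile 95.4 at day 0 and between 51.7 and 89.6 afterwards, and Dppa2 was at 88.5 at day 0 and between 45 and 83.6 afterwards. Utf1 encodes a chromatin-bound factor of undifferentiated cells. It had the highest value of any member in any library, 72.0% in knockdown cells at day 7, and its other 8 values were 13.9 to 44.8%.

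Fbxo15, an F-box gene used as a reporter of pluripotency, had 14.9% at day 0, 36.7, 38.8, 7.61 and 6.45% in Nons at days 4, 5, 6 and 7, and 22.5, 37.5, 20 and 18.03% in knockdown cells at those days. Dppa3 (Stella), a maternal and germ-cell gene, had 16.98% at day 0, 29.3, 33.3, 10.2 and 15.2% in Nons at days 4, 5, 6 and 7, and 26.3, 30.5, 9.68 and 8.51% in knockdown cells at those days. In both genes the values of days 4 and 5 were all above those of days 6 and 7, which held for 7 of 30 members (23.3%) and for 13.7% of the class. The mean percentile of days 6 and 7 less that of days 4 and 5 was -32.8 at Fbxo15 and -30 at Dppa3, the most negative after that of Klf2. At Dppa5a, whose product binds RNA, it was -26.2, with percentiles of 29.5 to 68.7 at days 6 and 7. At Tcl1, a co-activator of Akt, it was -5.25.

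Of the repressors and RNA regulators, Lin28a encodes the RNA-binding protein that blocks let-7 maturation. It had 14.9% at day 0, 27.6, 25.8, 3.45 and 12.1% in Nons at days 4, 5, 6 and 7, and 28.2, 57.4, 23.8 and 26.7% in knockdown cells at those days. The value was higher in knockdown than in Nons cells at every day, by 0.649, 31.6, 20.4 and 14.6 points. Sall4, a zinc-finger partner of Oct4, ranged from percentile 18.5 to 94.7. Zfp281, a zinc-finger factor that acts in the exit from the naive state, was above the class median in 8 of 9 libraries, the exception being Nons cells at day 4 (percentile 21.4).

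The ligands and co-receptors were the one role whose median of mean percentiles, 49.2, was not above that of the class. Tdgf1 (Cripto), the Nodal co-receptor, had 29.4% at day 0, 36.8, 30.96, 47.5 and 13.3% in Nons at days 4, 5, 6 and 7, and 29.5, 49.4, 44.8 and 9.09% in knockdown cells at those days, and its mean percentile of 82.0 came next after that of Pou5f1. Nodal itself had 25.7% at day 0, 24.2, 46.4, 33.3 and 7.07% in Nons at days 4, 5, 6 and 7, and 19.3, 44.2, 53.7 and 25% in knockdown cells at those days, with a mean percentile of 80.3. The inhibitor genes were lower. Lefty1 had 11.3% at day 0, 17.1, 37.5, 17.9 and 25.5% in Nons at days 4, 5, 6 and 7, and 7.87, 33.9, 16.9 and 8.99% in knockdown cells at those days, with a mean percentile of 54.5, and Lefty2 averaged 43.2. Gdf3, a TGF-beta family ligand, averaged 44.0. It had 19.8% at day 0, 5.13, 22.8, 18.4 and 10.8% in Nons at days 4, 5, 6 and 7, and 13.1, 20.2, 23.7 and 6.06% in knockdown cells at those days, and its mean percentile was 24.2 at days 4 and 5 and 57.9 at days 6 and 7, a difference of 33.7 points, the highest of the 30 members.

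Fgf4, the ligand that drives exit from the naive state, depended on where its start was placed. In the window of the GENCODE 5′ end (chr7:144846549-144848251) it had 0% at day 0, 11.4, 21.4, 10.2 and 26.9% in Nons at days 4, 5, 6 and 7, and 12.9, 20.2, 7.41 and 9.62% in knockdown cells at those days, with a mean percentile of 32.7. In the window of the RefSeq start (chr7:144860476-144862064) it had 0% at day 0, 14.8, 50.4, 9.38 and 4.35% in Nons at days 4, 5, 6 and 7, and 38.1, 61.4, 19.7 and 43.8% in knockdown cells at those days. The mean percentile there was 58.8, and the 4 knockdown values were each above the Nons value of the same day.

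Stat3, which carries the LIF signal, and Myc, a target of that signal, were above the class median in every library. Myc had 19.7% at day 0, 37.04, 40.7, 31.7 and 25% in Nons at days 4, 5, 6 and 7, and 47.1, 28.95, 41.7 and 25% in knockdown cells at those days, and its mean percentile of 86.0 was the highest of the 30. Stat3 averaged 80.6 and ranged from 55.7 to 96.6. Mycn, with 8 values, was at percentile 99.2 at day 0 (51.0%) and between 47.7 and 95 afterwards.

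Change from the single day 0 library was set against the median change of the class. Members were called where they lay 10 points or more from that median. In Nons cells at day 4, 4 of 30 members (13.3%) lay that far above it, as did 16.7% of the class, and 7 (23.3%) that far below (class 16.5%). At day 5, 6 lay above (20%; class 22.2%) and 8 below (26.7%; class 20.4%). At day 6, 7 lay above (23.3%; class 18.4%) and 9 below (30%; class 18.2%). At day 7, 6 lay above (20%; class 13.9%) and 10 below (33.3%; class 17.1%). In knockdown cells 5 members lay above at day 4 (16.7%; class 15.7%) and 4 below (13.3%; class 16.8%). At day 5, 5 lay above (16.7%; class 19.7%) and 5 below (16.7%; class 19.1%), at day 6, 7 above (23.3%; class 17.8%) and 6 below (20%; class 17.9%), and at day 7, 7 above (23.3%; class 16.9%) and 4 below (13.3%; class 17.8%). In Nons cells the share of lower members was above that of the class at every day. Days 4 and 5 (23.3 and 26.7%) lay nearer the class (16.5 and 20.4%) than days 6 and 7. In knockdown cells it was above at day 6 alone, where 20% was near the 17.9% of the class. In Nons cells Dppa4 was among the lower members at all 4 days, and Zfp42 at days 4, 6 and 7. Tcl1 was lower at days 5, 6 and 7, and Nanog at days 6 and 7. Myc was higher at days 4, 6 and 7. All of these changes share the 1 day 0 library, in which 15 of the 30 members lay above the upper quartile of the class, so they are not independent of each other. A high value in that library lowers every change taken from it. Whether the shares of lower members hold more than this was not tested.

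Relative to the class, the median change of the members from day 0 was 1.03, -2.37, -4.09 and -2.98 points in Nons cells at days 4, 5, 6 and 7, and -3.45, 0.948, -2.06 and 1.03 points in knockdown cells. The standard error over members, again a spread between genes, was 1.95 to 2.66 points.

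Days 4 and 5 were then compared with days 6 and 7 over both arms, with limma on quantile-normalised values of 8 libraries and Benjamini-Hochberg adjustment over all 829493 windows. The days are steps of a time course and not replicates, so the test asks for a shift shared by both arms. It called 1 window (0.000121%), which was no member window, and the members' adjusted p was 0.673 or more at the start sites. At an unadjusted p under 0.05, 7 of 30 member start-site windows were lower at days 6 and 7, namely Pou5f1, Nanog, Klf2, Dppa3, Dppa5a, Fbxo15 and Lin28a, against 8.76% of the class. Stat3 was higher, as was 3.65% of the class.

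Klf2 had the largest of these differences, -18.2 points in limma (unadjusted p = 0.00117, adjusted p = 0.781), and Pou5f1 the next, -17.5 points (unadjusted p = 0.000199, adjusted p = 0.673). Nanog differed by -8.20 points in limma (unadjusted p = 0.0378, adjusted p = 0.901), and Sox2 by 7.15 points (unadjusted p = 0.327, adjusted p = 0.953). Pou5f1 was also the 1 member whose 4 percentiles at days 6 and 7 were all below its 4 at days 4 and 5, which held for 1.44% of the class. None was wholly higher (class 1.87%). The count of 7 was 3 without day 4 (class 7.65%) or without day 6 (class 10.1%). It was 5 without the arm term (class 8.47%), where Nanog and Lin28a dropped out, 4 on the arcsine scale (class 7.04%) and 11 on unscaled values (class 40%). The count of higher members, 1, was 3 without day 4 (class 2.83%), 4 without day 6 (class 4.81%) and 5 without day 7 (class 5.92%). That count was 2 without the arm term (class 3.43%), and 0 on unscaled (class 0.0663%), centred (class 2.26%) or arcsine values (class 2.78%). Pou5f1 was among the lower windows under every alternative run, and Klf2 under all but the fit without day 6 (-10.6 points, unadjusted p = 0.0673 in limma).

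Knockdown and Nons libraries were compared at each day. In the start-site windows the median over members of knockdown less Nons was -2.39, -2.69, 0.338 and 6.39 points at days 4, 5, 6 and 7. The class medians were -3.99, -3.41, 1.65 and 0.760 points, so relative to the class the members lay at 1.60, 0.714, -1.31 and 5.63 points. The standard error over members was 1.82, 2.14, 2.65 and 2.63 points at the 4 days. Averaged over days, the members were 2.77 points above the class (standard error over members 0.983), and 19 of 30 lay above it. This mean was lower, 1.02 to 1.81 points, when any 1 day was left out (1.02 without day 4, 1.197 without day 5 and 1.21 without day 7). These standard errors describe the spread between genes, not between libraries.

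At day 4, 5 of 30 members (16.7%) were higher in knockdown cells than the class by 10 points or more, against 13.3% of the class, and 5 (16.7%) lower (class 14.1%). At day 5, 6 were higher (20%; class 19.7%) and 3 lower (10%; class 20.1%). At day 6, 8 were higher (26.7%; class 17.5%) and 4 lower (13.3%; class 17.3%). At day 7, 9 were higher (30%; class 14.5%), namely Klf2, Klf4, Prdm14, Utf1, Fbxo15, Tcl1, Lin28a, Nodal and Stat3, and 6 lower (20%; class 11.9%), namely Sox2, Klf5, Esrrb, Gbx2, Fgf4 and Lefty1. The day 7 members thus spread wider than the class on both sides. The day 7 libraries also had the most windows at 0, 5.43% in knockdown and 2.46% in Nons cells. Their medians over all windows were the lowest, 7.14 and 6.38%. Whether the wider spread goes with this was not tested.

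**Figure D4:**
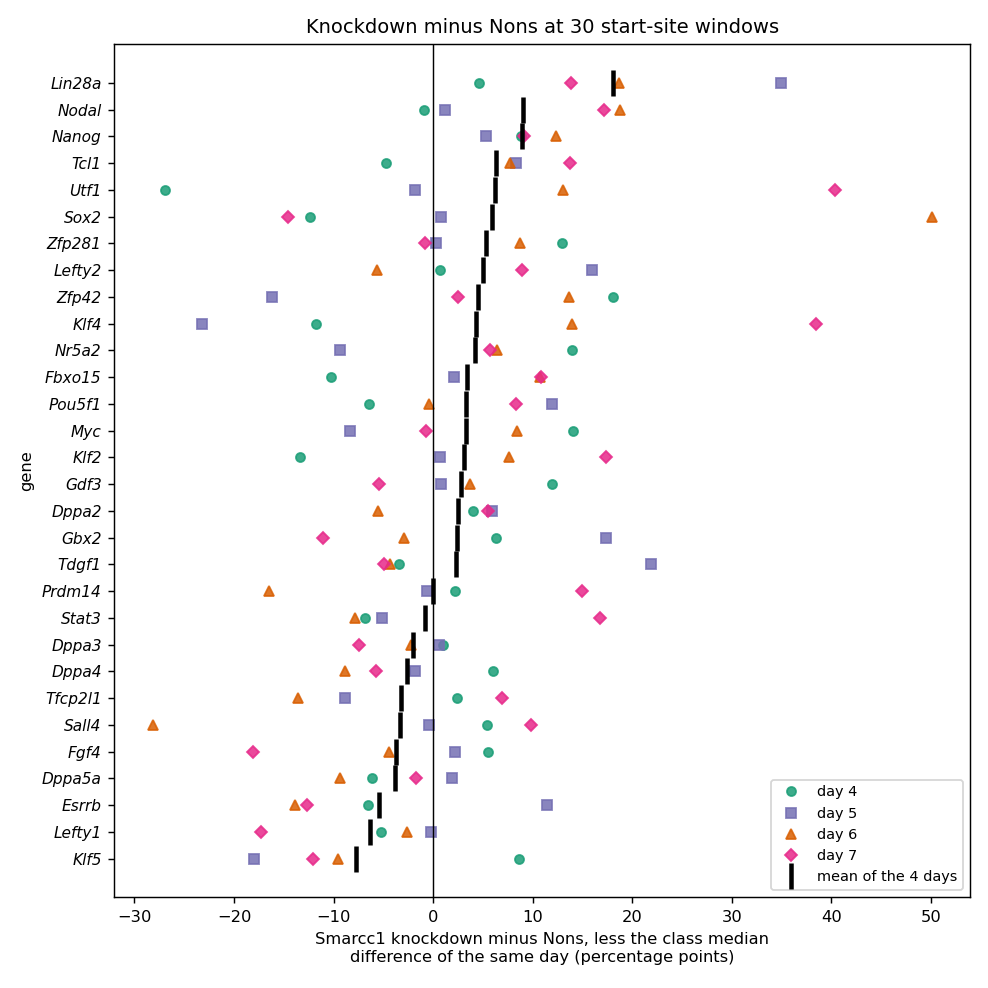
Smarcc1 knockdown minus Nons in the start-site windows of 30 genes (rows), less the class median difference of the same day, in percentage points (x axis). Symbols are the 4 days and black bars their mean. Lin28a and Nanog lie above 0 at all 4 days and Lefty1 below at all 4, whereas most genes have days on both sides.

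Lin28a had the highest mean difference relative to the class, 18.04 points, with 4.64, 34.99, 18.7 and 13.8 points at days 4, 5, 6 and 7. Nodal followed with a mean of 9.04 points, made of -0.925, 1.17, 18.7 and 17.2, and Nanog with 8.88 points, made of 8.81, 5.26, 12.4 and 9.09. Lin28a and Nanog (6.67%) were higher at all 4 days, a share near that of the class (6.41%). The lowest means were those of Klf5 at -7.78 points (8.6, -18.02, -9.56 and -12.1), Lefty1 at -6.33 (-5.19, -0.222, -2.62 and -17.3) and Esrrb at -5.41 (-6.502, 11.5, -13.9 and -12.7). Lefty1 was the one member (3.33%) that was lower at all 4 days, as was 6.29% of the class. Sox2 gave the widest single difference, 50.1 points at day 6, where its Nons value was 4.55% and its knockdown value 56.3%, but it was -14.6 at day 7.

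A knockdown effect shared by all 4 days was tested with limma, with day as a block. It called 0 of 829493 windows (0.0%) at an adjusted p under 0.05, and the smallest adjusted p was 0.995, while 35121 windows had an unadjusted p under 0.05. Among the member start sites Lin28a alone was higher at that level, with 16.8 points in limma (unadjusted p = 0.00176, adjusted p = 0.995), where 2.89% of the class was higher. No member was lower, where 7.61% of the class was. Leaving out day 5 raised the count of higher members from 1 to 5 (class 4.97%), namely Nanog, Zfp42, Nr5a2, Lin28a and Nodal. Leaving out day 4 raised it to 4 (class 4.39%), namely Utf1, Tcl1, Lin28a and Nodal. Lower members, 0 in the main fit, numbered 2 without day 5 (class 6.77%), Esrrb and Lefty1, and 1 without day 4 (class 5.27%), Klf5. There were 2 without day 6 (class 9.08%), Sox2 and Lefty1, and 0 without day 7 (class 9.03%). Quantile normalisation gave 3 higher (class 4.55%), Nanog, Lin28a and Nodal, and 1 lower (class 7.39%), Esrrb. Centring gave 2 higher (class 3.6%), Nanog and Lin28a. Removing windows at 0 or 100% gave 1 lower (class 7.34%), Klf5. For Lin28a the difference was 11.9 to 22.2 points with any 1 day left out.

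The other windows of the network genes, in the bodies and the 5 kb upstream, were also more open than their class in every library. Unlike the start sites, they were not set against windows of like GC content and length. Taking each gene's median over its windows, the 32 members had a median of 15.0% at day 0, against 11.6% over 21342 other genes, an excess of 3.45 points. In Nons cells the excess was 4.96, 3.79, 1.84 and 1.58 points at days 4, 5, 6 and 7, and in knockdown cells 6.75, 3.57, 3.18 and 1.45 points. Between 22 and 29 of the 32 genes lay above the class in each library. Taken window by window, the median percentile of the 338 windows was 70.0 at day 0, 67.8, 63.3, 57.0 and 54.9 in Nons cells, and 70.2, 60.8, 64.3 and 60.2 in knockdown cells. Nons cells thus had a lower percentile at each later day. These percentiles pool upstream and body windows, and 64 of the 338 lay wholly upstream, against 25691 of 395525 in the class. In the class, 53.7% of upstream and 47.7% of body windows had a mean percentile above 50. With each window counted once the excess was smaller in all 9 libraries, from 0.475 points in Nons cells at day 7 to 3.38 points at day 0, and in 6 of them by more than the standard error over members.

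In 29 of the 32 genes (90.6%; other genes 48.6%) the other windows had a median of mean percentiles above 50, the exceptions being Stat3 (47.7), Tfcp2l1 (48.4) and Gdf3 (48.6). Stat3, with the lowest such median of the 32 genes, had a start-site mean percentile of 80.6. The 64 windows that lay wholly upstream had a median of 63.8, with 52 above 50 (81.2%; class 53.7%), and the 274 body windows had 56.0, with 192 above 50 (70.1%; class 47.7%). Of the 338 windows, 20 (5.92%), in 14 genes, were above the class median in all 9 libraries, as was 1.1% of the class.

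**Figure D5:**
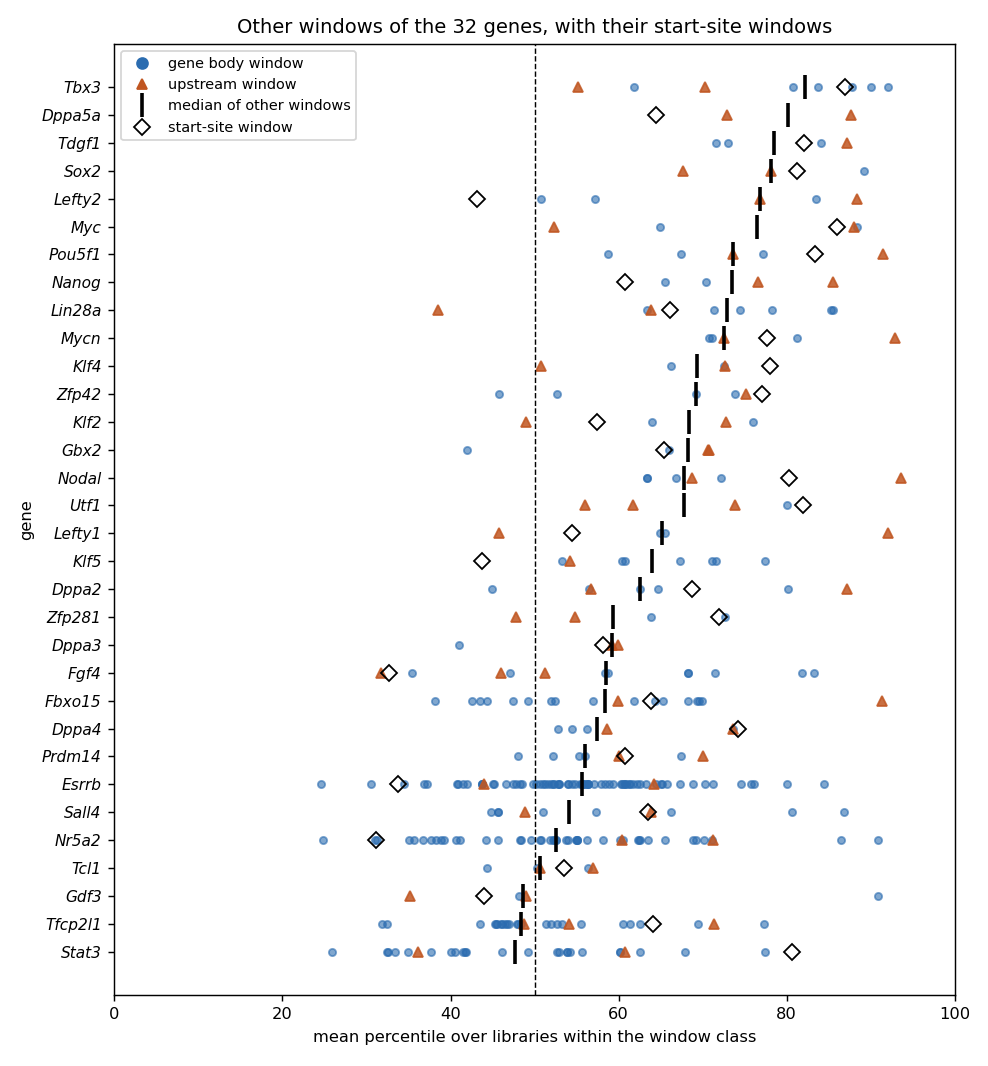
Mean percentile over the 9 libraries, within the window class (x axis), of each other window of the 32 genes (rows). Blue circles are body and orange triangles upstream windows, black bars are gene medians, open diamonds are start-site windows (over 8 libraries for Tbx3 and Mycn), and the dashed line is the class median. The upstream windows of Nodal, Mycn and Lefty1 lie furthest right, at 92.1 to 93.6.

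The 3 most open of these windows all lay upstream. The first, at Nodal (chr10:61414274-61416406, centred 2.63 kb before the start), had a mean percentile of 93.6. It had 28.1% at day 0, 19.3, 37.6, 24.3 and 12.3% in Nons at days 4, 5, 6 and 7, and 44.4, 35.8, 21.95 and 15.9% in knockdown cells at those days. That of Mycn (chr12:12942611-12945454, 2.12 kb before the start) had a mean percentile of 92.9, with 38.6% at day 0, 31.96, 38.3, 25.7 and 16.5% in Nons at days 4, 5, 6 and 7, and 35.4, 40.5, 18.8 and 9.09% in knockdown cells at those days. Lefty1 (chr1:180932207-180934522, 1.66 kb before the start) had a mean percentile of 92.1, with 37.7% at day 0, 22.3, 37.8, 14.1 and 15.5% in Nons at days 4, 5, 6 and 7, and 24.4, 30.8, 25.9 and 14.8% in knockdown cells at those days. Every one of these values lay above the class median of their library.

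A Pou5f1 window, named after its values were seen, lay next to its start-site window on the upstream side (chr17:35501992-35504053, centred 3.0 kb before the start). It had 42.9% at day 0, 16.4, 37.7, 25.5 and 9.45% in Nons at days 4, 5, 6 and 7, and 27.6, 31.2, 33.7 and 23.5% in knockdown cells at those days, and a mean percentile of 91.4. Unlike the start-site window, its values at days 6 and 7 were not all below those at days 4 and 5, and day 0 was the highest of the 9.

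Genes with 10 or more other windows were summarised over them. Esrrb had 75, whose mean percentiles ran from 24.6 to 84.4 with a median of 55.6, and 54 of them were above 50, while its start-site window averaged 33.8. Nr5a2 had 47 (24.8 to 90.9, median 52.6), again above its start-site window at 31.1. Tfcp2l1 had 27 (31.9 to 77.3), Stat3 26 (25.9 to 77.4), Fbxo15 18 (38.1 to 91.3, median 58.4), Fgf4 12 (31.7 to 83.3, median 58.5) and Sall4 10 with complete values (44.8 to 86.8, median 54.1). Among genes with few windows Tbx3 had the highest median, 82.2 over 8 windows, followed by Dppa5a at 80.2 over 2 and Tdgf1 at 78.5 over 4.

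In the limma comparison of days, 33 of the 338 other member windows were lower at days 6 and 7 at an unadjusted p under 0.05 (9.76%; class 2.65%) and 10 were higher (2.96%; class 2.8%), none past an adjusted p of 0.05. Esrrb held 7 of the lower windows out of 75, Nodal 3 of 6, and Tdgf1, Klf2, Dppa4, Prdm14, Sall4, Fbxo15 and Nr5a2 held 2 each. Windows of 1 gene are neighbours and not independent. The median differences over a gene's windows were -10.4 points at Tdgf1, -8.71 at Nodal, -6.80 at Dppa4 and -5.66 at Klf2. For the knockdown, 12 were higher (3.55%; class 1.61%) and 11 lower (3.25%; class 2.49%). The smallest p was that of the RefSeq start of Fgf4, which was 21.02 points higher in knockdown cells in limma (unadjusted p = 0.000298, adjusted p = 0.995). Relative to the class, the knockdown difference over each gene's other windows was 0.0232, -0.880, 0.656 and 0.247 points at days 4, 5, 6 and 7. The standard error over members, a spread between genes and not between libraries, was 0.538 to 0.815 points.

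Further lists of named genes, also chosen with earlier results of these data known, placed these values. In 7 genes of the LIF pathway the median of mean start-site percentiles was 61.1, from 42.0 at Lif, the ligand, to 71.8 at Jak1, its kinase. For 6 of 10 formative and primed genes with complete values it was 60.5, from 43.8 at Otx2 to 93.1 at Etv5, both transcription factors. For 19 of 20 other pluripotency genes it was 61.0, from 32.1 at Trim28, a corepressor, to 89.4 at L1td1, an RNA-binding protein. Markers of differentiated cells (17 of 18) had 55.4, from 23.7 at Mixl1, a primitive streak factor, to 80.2 at Eomes, a mesendoderm factor. No start-site window of these lists was called by either limma fit.

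At day 0 the median percentiles were 74.3 for the members, 83.1 for the other pluripotency genes, 50.8 for the LIF pathway, 62.9 for the formative and primed genes and 38.6 for the differentiated markers. In Nons cells at day 7 they were 70.0 for the members, 63.6 for the other pluripotency genes, 76 for the LIF pathway, 92.4 for the formative and primed genes and 65.1 for the differentiated markers. In knockdown cells at day 7 they were 80.3, 59.9, 62.9, 37.4 and 62.9 in that order. The formative and primed genes, 6 windows, were thus the highest list in the one arm and the lowest in the other. Accessibility at start sites is not expression, so these values do not show which cell types the cultures held.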

How the data were processed

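The values are percent GpC methylation in 9 NOMe-seq libraries, with 1 replicate per condition and day, grouped by the sample titles. Reads were trimmed by the authors (trim_galore) and mapped with Bismark to mm10 masked at variants between FVB and CAST, and GpC positions were taken with coverage2cytosine in its NOMe-seq mode. The deposited percent values are Seqmonk means over windows of 200 read positions with both alleles merged, the number being that of the deposited table's name, and the study's plots used other window settings and an enrichment normalisation. The deposited values were not scaled between libraries, so a library can be high or low as a whole. Read counts per window were not used here, so depth is unknown and no binomial interval was computed.

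Windows were 2809 bp long at the median. Those on chromosomes 1 to 19 and X with a value in all 9 libraries (829493 of 833294) were joined to GENCODE M21 genes (mm10). RefSeq promoters (GRCm38.p6) were used for the printed stretches, and GpC and motif counts were made around the GENCODE 5′ ends. Percentiles placed ties at their mid-rank, and differences relative to the class were medians over members less class medians. limma 3.58.1 (R 4.3.3) tested a knockdown term with day as a block on percent values, and days 6 and 7 against days 4 and 5 with an arm term after quantile normalisation, with Benjamini-Hochberg adjustment at 0.05. It was also run on simulated data, drawn as independent normally distributed values of fixed spread around the real window means. These data had no library-wide level differences, so they do not show how the fit performs on the real libraries. Other steps used Python 3.11.15, numpy 2.4.6, pandas 2.3.3 and scipy 1.17.1.

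The members and lists were chosen with earlier results of these data known. Genes given in every library were the 3 core factors, the 3 at each end of mean percentile, of the difference between days and of the knockdown difference, and the 3 most open other windows. Genes with 10 or more other windows were given by median and range, and each further list by its highest and lowest gene. Alternatives changed the summary, window definition, background, filters, scaling and days used. After the data were seen, the RefSeq start of Fgf4 was added, as were alternatives for the count of lower members and for the limma differences of Pou5f1, Klf2 and Lin28a.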

Additional observations from a re-analysis of the deposited data

Results flagged for a closer look

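Relative to other protein-coding genes, the start-site windows of the members lay on opposite sides of the class in the knockdown comparison of neighbouring days, at -1.31 points at day 6 and 5.63 points at day 7. Each value compares 1 knockdown library with 1 Nons library, and whether the days differ was not tested. The day 6 value was 2.00 with means in place of medians, 1.62 with windows centred within 1 kb of the start, and 1.63 with the RefSeq start of Fgf4.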

How the results depend on the processing

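Of 430 alternative values, 370 stayed within the standard error over members, on the same side of the threshold, or within 1.5 times of a count. A value that stayed within the standard error could still change sign. With means, the start-site change from day 0 in Nons at day 4 was -0.821 in place of 1.03. The values outside these limits follow, in points relative to the class, and the cause was not tested. With means, the start-site excess was 4.61 at day 0 and 3.93 in Nons at day 5, the other-window excess 4.61 at day 0, 2.73 in Nons at day 6, and 5.57 and 3.94 in knockdown cells at days 4 and 6. Start-site change from day 0 with means was -1.60 in Nons at day 6, and -0.309 and 0.404 in knockdown cells at days 4 and 6, and the knockdown difference was 2.00 at start sites at day 6 and 0.590 in other windows at day 4. Windows centred within 1 kb of the start gave an excess of 3.25 in knockdown cells at day 4, a change of 0.719 at day 6 and a knockdown difference of 1.62 at day 6, which was 1.63 with the RefSeq start of Fgf4. Against windows of like GC content and length the excess was 4.66 at day 0 and 2.94 and 4.11 in knockdown cells at days 4 and 5. Quantile normalisation gave a start-site excess of 5.47 in Nons at day 7, other-window excesses of 2.55 and 2.34 in Nons at days 5 and 7 and 7.73 in knockdown cells at day 4, other-window changes of 0.539 and 2.90 at day 4 in Nons and knockdown cells, and a mean other-window knockdown difference of 0.732. With each window once, the other-window excess was 2.53, 0.994 and 0.475 in Nons at days 4, 6 and 7 and 2.87, 2.02 and 2.10 in knockdown cells at days 4, 5 and 6. The change from day 0 in knockdown cells was then -0.167 at day 4, against 1.82 by gene. This was the one change of sign in a main value larger than the standard error over members. At days 5, 6 and 7 the change was -2.06, -1.42 and -2.03. With gene bodies only, the other-window excess was 5.73 and 1.02 in Nons at days 5 and 7 and 4.52 and 1.97 in knockdown cells at days 5 and 6, the change was -1.36 in Nons at day 4 and 0.766, 0.847 and -1.51 in knockdown cells at days 4, 5 and 6, and the knockdown difference was 1.64 at day 4 and 1.70 at day 7.

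With 1 day left out, the mean knockdown difference was 1.02 to 1.81 at start sites and -0.309 to 0.517 in other windows (main values 2.77 and 0.252), with -0.209 without day 4, -0.285 without day 6 and -0.309 without day 7. limma called 0 windows for the knockdown under every alternative. For days 6 and 7 against days 4 and 5 it called 24 on unscaled values, 0 on the arcsine scale (46161 at an unadjusted p under 0.05), and 1 to 6 with a day left out (2 without day 6, 6 without day 7), against 1. Lower member start sites numbered 11 on unscaled values (class 40%), 4 on the arcsine scale (class 7.04%), 5 without the arm term (class 8.47%) and 3 to 6 with a day left out (class 7.65 to 10.1%), against 7 (class 8.76%). The start-site excess kept its positive sign in all 9 libraries under every alternative. No paired analysis was possible by replicate number because each group has 1 replicate. Day paired the arms in the knockdown fit. Without the day block 5922 windows had an unadjusted p under 0.05, against 35121, with Lin28a again the 1 higher member (class 0.918%). Unknown depth limits every single value.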
